A study of Homo sapiens with 6 samples.

Results

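The gasdermins are a small family of human proteins that can open pores in the plasma membrane, and 4 of its 6 members had a transcript cluster of their own in the deposited values. A transcript cluster is the group of probes with which the array measures 1 gene. Members were taken by gene symbol from clusters that carry 1 symbol, out of 18276 genes measured in that way. GSDMB, GSDMC, GSDMD and GSDME each had 1 cluster (8014903, 8152828, 8148642 and 8138602), so that no choice between clusters was needed, and GSDMA and PJVK were not analysed here. The family was picked because GSDMC was already known to differ strongly between the groups of this series. The values of the members are therefore a description, and no p-value of them is given.

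RNA from SUM159, an established breast cancer cell line that serves as a model of the mesenchymal stem-like (MSL) subtype, was hybridized to 6 Human Gene 1.0 ST arrays after 6 days of growth embedded in matrigel. Of these arrays, 3 came from cells with knockdown of TβRIII, the type III TGF-β receptor encoded by TGFBR3 (labelled TGFBR3KD, called TβRIII-KD here), and 3 came from control cells. The cells called TβRIII-KD in the study's methods carry 1 shRNA to TGFBR3, delivered by a lentivirus, and were selected with puromycin as a stable population. The labels give no hairpin or vector for either group. Whether separate cultures were used for the arrays of a group is not in the labels, so the spread and the p-values cover these samples only and may be technical. Each group is 1 cell population, and loss of TβRIII cannot be told apart from other differences between the populations.

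Gasdermins consist of an N-terminal domain that forms the pore and, in most members, a C-terminal domain that holds it in check. Proteases cut the link between the domains, the freed N-terminal parts assemble in the membrane, and the cell may then release interleukins and burst, which is called pyroptosis. GSDMD is cut by the inflammatory caspases encoded by CASP1, CASP4 and CASP5, GSDMB by granzyme A of killer lymphocytes and GSDMC by the product of CASP8. GSDMC was first described in melanoma cells and is normally found in skin and other surface epithelia, and GSDME is often silenced in tumors. All of this concerns cut proteins, whereas the arrays measured RNA only.

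TGFBR3 itself gave log2 signals of 9.72, 10.01 and 10.16 in TβRIII-KD 1, 2 and 3, against 10.81, 10.89 and 10.56 in control 1, 2 and 3. The groups did not overlap, which was also so for 20.7% of all clusters. The log2 fold change of TGFBR3 was -0.79 (SE 0.13, adjusted p = 0.0145 from limma), in the direction that the labels give. GAPDH, a glycolytic enzyme used as a reference, averaged 13.95 in TβRIII-KD and 13.95 in controls. The medians of the arrays lay between 7.67 and 7.71. Of 7 genes listed for breast cancer cell lines of mesenchymal type, all lay above the median signal of all clusters (7.70). The list holds VIM, CD44, FN1, SPARC and AXL, and also KRT8 and KRT18, which are keratin genes of epithelial cells. Of 6 hormone receptor and luminal genes, 5 (all but ERBB2) lay below that median. The mean log2 signal of the 7 genes, keratins included, was 11.91 to 12.03 on the TβRIII-KD arrays and 12.13 to 12.18 on the control arrays. Of the 7, 0 passed the fold limit of 0.5 in limma. An unadjusted p under 0.05 was found for 4, where 15.2% of all clusters had one. These were SPARC, a matrix protein gene, at -0.45 (adjusted p = 0.0189 from limma), KRT8 at -0.36, KRT18 at -0.38 and AXL. AXL went the other way, at 0.18 (SE 0.07), and was the 1 gene of the 7 above 0. The part of the lower mean of the 7 genes in the results was not tested. The number of arrays limits the precision of every value.

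GSDMC, a target of CASP8, was far lower after TβRIII knockdown than in control cells. Log2 signals were 6.40, 5.89 and 6.60 in TβRIII-KD 1, 2 and 3, against 8.99, 8.67 and 9.12 in control 1, 2 and 3. The highest TβRIII-KD array lay 2.07 below the lowest control array, a gap several times wider than the range within TβRIII-KD (0.71) or within controls (0.45). The means were 6.30 ± 0.37 in TβRIII-KD and 8.93 ± 0.23 in controls (SD, n = 3 arrays each). The log2 fold change was -2.63 (SE 0.18), or a signal 6.19-fold higher in controls. In TβRIII-KD, 23.5% of all clusters had a smaller mean than GSDMC, whose mean there was below the median of all clusters (7.70). Whether GSDMC was still expressed in TβRIII-KD cannot be told from this signal. Among all 18276 genes, GSDMC had the lowest fold change but 6, that is, it stood in place 7 from the bottom. In a bulk RNA sample, fewer cells that express the gene and less GSDMC RNA per cell cannot be told apart.

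**Figure D1:**
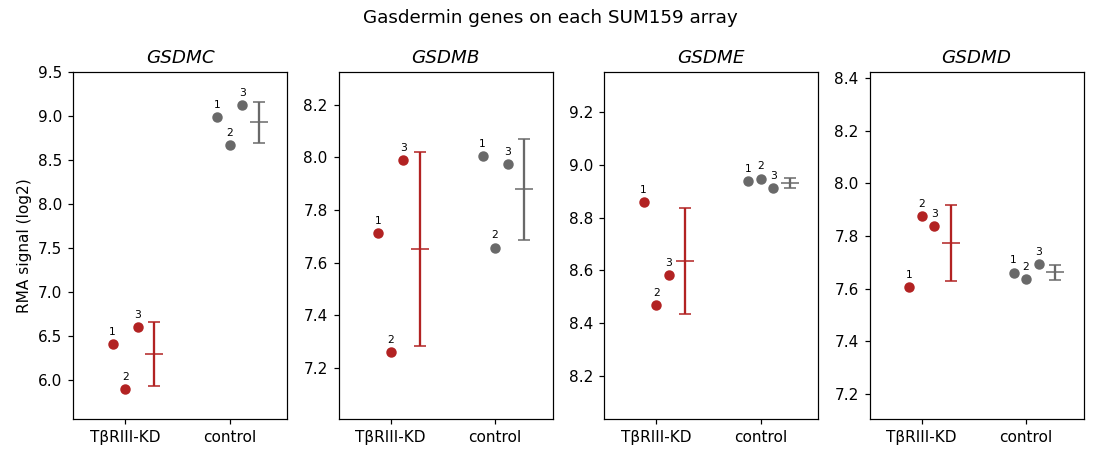
RMA signal (log2) of the 4 measured gasdermin genes on each SUM159 array, with red dots for TβRIII-KD and grey dots for control, numbered by replicate, and bars for the mean ± SD (n = 3 arrays; each panel has its own axis, which does not start at 0). For GSDMC the red dots span 5.89 to 6.60 and the grey dots 8.67 to 9.12, while the groups overlap for GSDMB and GSDMD.

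The other members differed by much less. GSDME, the gasdermin that can turn apoptosis into lysis, had log2 signals of 8.86, 8.47 and 8.58 in TβRIII-KD and of 8.94, 8.95 and 8.91 in controls. The knockdown arrays were all under the control arrays, but the gap was 0.05, and the control arrays spanned 0.04 where the TβRIII-KD arrays spanned 0.39. The log2 fold change of GSDME was -0.30 (SE 0.10). GSDMB, the target of granzyme A, had log2 signals of 7.712, 7.259 and 7.988 in TβRIII-KD and of 8.004, 7.657 and 7.973 in controls. Its groups overlapped, and its log2 fold change of -0.22 (SE 0.18) depended on 1 array, being -0.03 without TβRIII-KD 2. GSDMD, the executioner of inflammasome-driven pyroptosis, had log2 signals of 7.61, 7.88 and 7.84 in TβRIII-KD and of 7.66, 7.64 and 7.69 in controls. Here too the groups overlapped, with a log2 fold change of 0.11 (SE 0.09). Without any 1 array the fold change of GSDMC stayed between -2.78 and -2.43, that of GSDME between -0.41 and -0.21 and that of GSDMD between 0.06 and 0.19. Levels of different clusters are not compared, since each has its own probes.

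The study called a gene when its adjusted p was under 0.05 and its log2 fold change exceeded 0.5 in size. At this cutoff 1 of the 4 members passed, GSDMC, where 2.26% of all transcript clusters did. The arrays of the 2 groups did not overlap for 2 members, against 20.7% of all clusters. Since the family was chosen from this same contrast, these counts only describe the choice, and nothing is read from them. The median log2 fold change of the 4 members was -0.26, beside 0.01 over all clusters. The SD was larger in TβRIII-KD than in controls for all 4, as it was for 63.8% of all clusters. Within TβRIII-KD, array 2 had the lowest GSDMB, GSDMC and GSDME signals but the highest GSDMD signal, and array 3 had the highest GSDMB and GSDMC. Within controls, array 2 was the lowest for GSDMB, GSDMC and GSDMD and the highest for GSDME.

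None of the measured genes beside GSDMC on chromosome 8 differed by a similar amount. CCDC26, a noncoding gene next to GSDMC on 1 side, averaged 4.76 in TβRIII-KD and 4.76 in controls (log2 fold change 0.00, SE 0.09). This signal is far below the median of all clusters (7.70), and whether CCDC26 is expressed at all cannot be told from it. CYRIB, an inhibitor of RAC1 signaling on the other side, averaged 8.95 in TβRIII-KD and 9.04 in controls (log2 fold change -0.09, SE 0.16, adjusted p = 0.860 from limma). ASAP1, a regulator of ARF GTPases that follows CYRIB, was lower by a small amount. It averaged 10.68 in TβRIII-KD and 11.05 in controls (log2 fold change -0.37, SE 0.07, adjusted p = 0.0217 from limma), and its adjusted p was 0.0591 to 0.105 without any 1 array except TβRIII-KD 3. ADCY8, the next gene after ASAP1, averaged 6.38 in TβRIII-KD and 6.09 in controls, and its arrays did not overlap. Its log2 fold change was 0.29 (SE 0.08, adjusted p = 0.115 from limma). The 6 nearest measured genes around GSDMC had fold changes from -0.37 to 0.29. Over the 24 nearest genes of the 4 measured members, 3 on each side, 0 passed the cutoff in limma and 1, ASAP1, had an adjusted p under 0.05, beside 3.35% of all clusters (1.24% higher and 2.11% lower). The median fold change of these neighbours was 0.01. ZPBP2, a sperm gene beside GSDMB, lay highest at 0.34 (adjusted p = 0.271 from limma). It averaged 4.37 in TβRIII-KD and 4.03 in controls, lower than CCDC26, so its expression cannot be told from these values either. GSDMA and PJVK have no value of their own here, and the fold changes around them lay between -0.04 and 0.34 for 5 neighbours of GSDMA other than GSDMB and between -0.06 and 0.19 for 6 neighbours of PJVK.

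**Figure D2:**
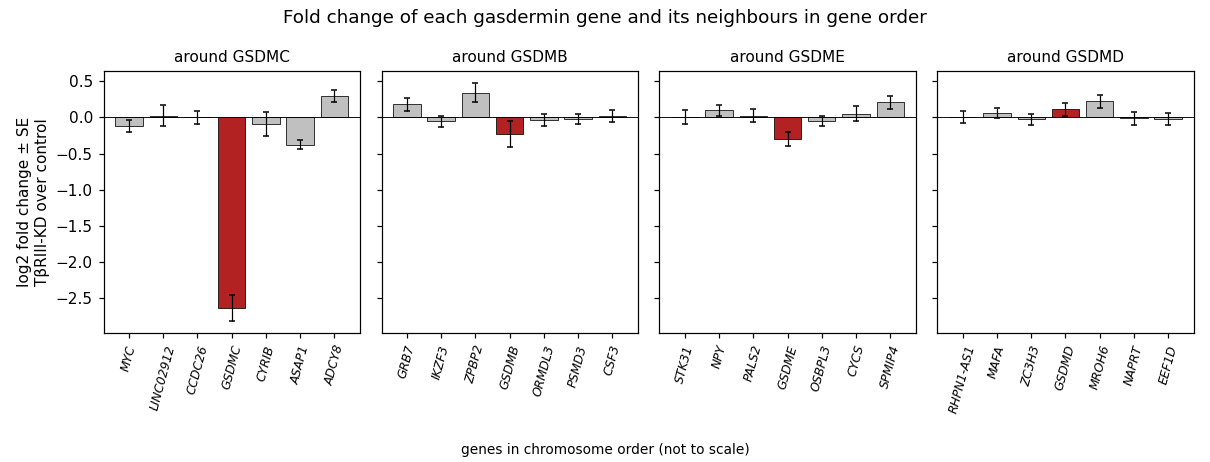
Log2 fold changes (TβRIII-KD minus control) of each measured gasdermin gene (red) and the 3 nearest measured genes on each side in RefSeq order (grey), with lines for the SE from limma (n = 3 arrays per group) and places on the horizontal axis not to scale. The bar of GSDMC reaches -2.63, while its neighbours lie between -0.37 and 0.29.

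Some genes elsewhere in the genome differed between the groups by about as much as GSDMC. Likeness was measured over the 6 arrays as the root-mean-square distance between log2 signals after each gene was centred on its own mean, which takes both the difference between the groups and the spread within them into account. The nearest of 18275 other genes was FMO1, a flavin monooxygenase, at a distance of 0.24, followed by BPIFB4, a member of the BPI fold family, at 0.25. The complement protease gene C1S lay at 0.25 and SULF2, whose product trims sulfate groups from heparan sulfate, at 0.26. RGS7BP, which encodes a binding partner of RGS proteins, lay at 0.28, the microRNA gene MIR95 at 0.30, TC2N at 0.31 and the surface glycoprotein gene CD24 at 0.33. The median distance over all genes was 1.35. Fold changes of these 8 genes ran from -2.91 (RGS7BP) to -2.18 (C1S), and the measure selects for such values. The points are 6 arrays in 2 groups, and genes with a fall of similar size come near by construction, while genes without one lie far away. Within the groups the order of the arrays was only partly shared. In TβRIII-KD, array 2 was the lowest for GSDMC, BPIFB4, C1S, SULF2, MIR95 and CD24, but not for FMO1, RGS7BP or TC2N. In controls, array 2 was the lowest for GSDMC, FMO1, BPIFB4, TC2N and CD24, but not for C1S, SULF2, RGS7BP or MIR95.

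**Figure D3:**
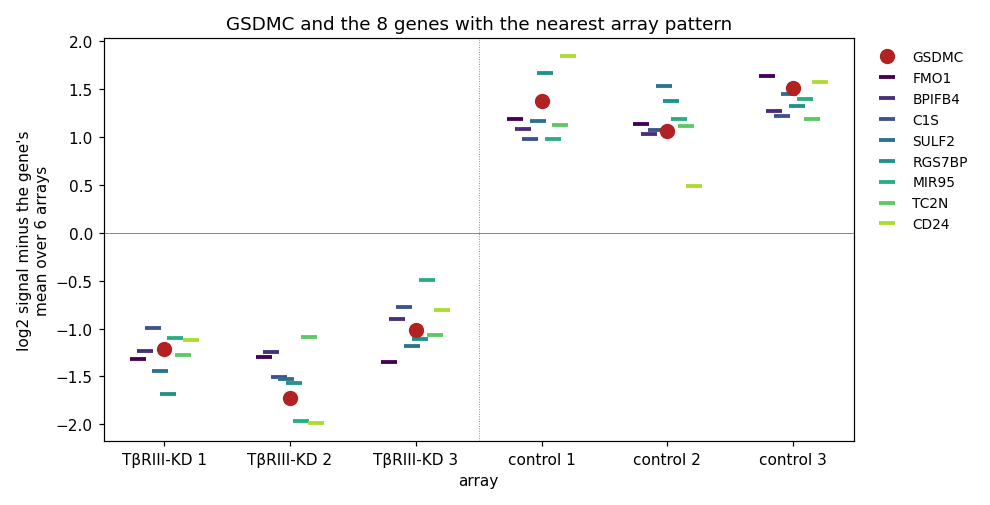
Log2 signal minus the gene's own mean over 6 arrays for GSDMC (red circles) and the 8 genes nearest to it (dashes), with the 3 TβRIII-KD arrays on the left and the 3 control arrays on the right. All 9 genes lie below 0 on the TβRIII-KD arrays and above 0 on the control arrays, at distances from GSDMC of 0.24 (FMO1) to 0.33 (CD24).

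The proteases that cut gasdermins showed no such differences. Of 13 listed, 11 were measured, and 0 had an adjusted p under 0.05 in limma (3.35% of all clusters). An unadjusted p under 0.05 was found for 2 (15.2% of all clusters). CASP8, whose product cuts GSDMC, had log2 signals of 9.94, 9.89 and 9.90 in TβRIII-KD and of 10.07, 10.11 and 9.97 in controls. The TβRIII-KD arrays lay below the control arrays by a small margin, at -0.14 for the log2 fold change (SE 0.07, adjusted p = 0.422 from limma). CASP6, which encodes another caspase reported to cut GSDMC, differed by 0.12 (SE 0.10, adjusted p = 0.634 from limma). Those of CASP1 and CASP4, on the side of GSDMD, were -0.28 (SE 0.12, adjusted p = 0.311 from limma) and -0.10 (SE 0.07, adjusted p = 0.582 from limma). GZMA and GZMB, the granzyme genes of killer lymphocytes, had fold changes of 0.04 and 0.10, both without passing the test, and the value for GZMA turned to -0.014 when quantile normalization was repeated. The neutrophil elastase gene ELANE had the smallest p of the list (log2 fold change -0.27, SE 0.09, adjusted p = 0.187 from limma). The median fold change of the list was 0.02.

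Among the inflammasome genes, whose products sense danger and activate CASP1, a pair of sensors was lower in TβRIII-KD. AIM2, a sensor of DNA in the cytosol, had log2 signals of 5.92, 5.16 and 5.60 in TβRIII-KD and of 6.40, 6.29 and 6.71 in controls. The groups did not overlap, and AIM2 fell by 0.90 (SE 0.19, adjusted p = 0.0368 from limma), a signal 1.87-fold higher in controls. MEFV, which encodes pyrin, had log2 signals of 7.11, 7.03 and 6.98 in TβRIII-KD and of 7.49, 7.59 and 7.96 in controls. It fell by 0.64 (SE 0.12, adjusted p = 0.0244 from limma), again without overlap. Both genes had low signals. AIM2 averaged 5.56 in TβRIII-KD and 6.47 in controls, and MEFV averaged 7.04 and 7.68, all below the median of all clusters (7.70). Neither call was stable, since the adjusted p of AIM2 was 0.0544 to 0.124 without any 1 array except TβRIII-KD 1, and that of MEFV was 0.0554 to 0.0979 without TβRIII-KD 1, TβRIII-KD 2 or control 2. The adaptor gene PYCARD, which links sensors to CASP1, had a fold change of -0.11 (adjusted p = 0.582 from limma), and the sensor gene NLRP3 had one of 0.07 (adjusted p = 0.685 from limma). IFI16, a DNA sensor of the same family as AIM2 that was named after its values were seen, averaged 10.85 in TβRIII-KD and 11.29 in controls (log2 fold change -0.43, SE 0.10, adjusted p = 0.0509 from limma). Of 18 genes measured of this list, 0 were higher at the cutoff and 2 were lower, with a median fold change of 0.05, and the share of all clusters that were lower is 1.49%.

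Of the genes on the pathway lists, the largest fold changes were in receptors of the interleukin-1 family, whose ligands include cytokines released through gasdermin pores. IL1R2, a decoy receptor that binds interleukin-1 without signaling, had log2 signals of 8.34, 7.84 and 8.88 in TβRIII-KD and of 10.28, 9.79 and 10.42 in controls. IL1R2 fell by 1.81 in log2 units (SE 0.25, adjusted p = 0.00731 from limma), a signal 3.51-fold higher in controls. IL1RL1, the receptor of interleukin-33, had log2 signals of 8.37, 7.49 and 8.78 in TβRIII-KD and of 9.99, 9.70 and 10.31 in controls. Its log2 fold change was -1.78 (SE 0.29, adjusted p = 0.0147 from limma), and its adjusted p was 0.0707 without control 1 and 0.0570 without control 3. In both genes, as in GSDMC, TβRIII-KD 2 was the lowest array and TβRIII-KD 3 the highest of the knockdown group, and control 2 was the lowest of the controls.

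These receptor genes belong to a run of 6 on chromosome 2, in the order IL1R2, IL1R1, IL1RL2, IL1RL1, IL18R1 and IL18RAP, with no other protein-coding gene starting between them in RefSeq. Along the run the log2 fold changes were -1.81, -0.23, 0.04, -1.78, -1.03 and -0.22. IL18R1, a subunit of the interleukin-18 receptor that was named for its place in this run after its values were seen, had log2 signals of 7.54, 6.97 and 8.23 in TβRIII-KD and of 8.63, 8.33 and 8.86 in controls. The arrays did not overlap, but IL18R1 did not pass the test (SE 0.28, adjusted p = 0.0999 from limma). The ligands IL18 and IL1B did not pass either. IL18, a cytokine released through gasdermin pores, had log2 signals of 9.69, 9.49 and 9.46 in TβRIII-KD and of 9.32, 9.17 and 8.70 in controls, a difference of 0.48 (SE 0.15, adjusted p = 0.158 from limma). For IL1B the fold change was -0.18 (SE 0.08, adjusted p = 0.355 from limma). Of 19 genes measured of the interleukin-1 family list, 0 were higher at the cutoff and 2 were lower, where 0.777% of all clusters were higher and 1.49% were lower, and the median fold change was 0.00.

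**Figure D4:**
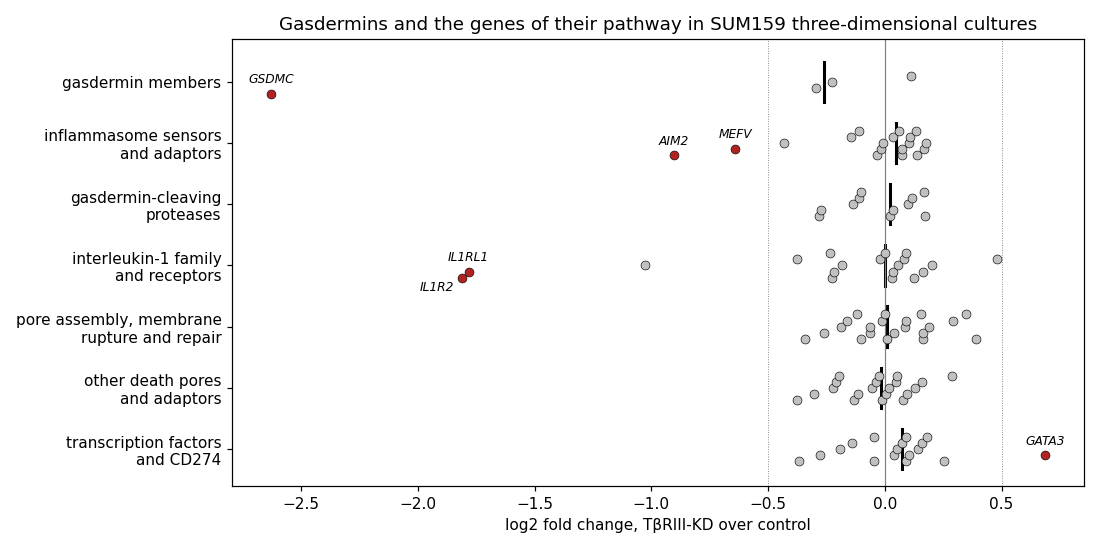
Log2 fold changes (TβRIII-KD minus control) of the measured gasdermins (top row) and for each gene of 6 pathway lists, with 1 dot per gene, red for genes past the cutoff (with the fold limit of 0.5 as dotted lines) and a black bar at the median of each list. GSDMC lies farthest from 0 at -2.63, followed by IL1R2 (-1.81) and IL1RL1 (-1.78), and the list medians lie between -0.02 and 0.07.

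Genes listed for the steps after the cut, as measured here, did not pass the cutoff. NINJ1, whose product ruptures the membrane at the end of pyroptosis, averaged 9.98 in TβRIII-KD and 9.97 in controls (log2 fold change 0.00, SE 0.09, adjusted p = 0.995 from limma). Of 21 measured genes for pore assembly, membrane rupture and repair, 0 passed the cutoff in limma, against 2.26% of all clusters. An unadjusted p under 0.05 was found for 5, where 15.2% of all clusters had one, and the arrays of the groups did not overlap for 8, against 20.7% of all clusters. ZDHHC7, a palmitoyltransferase reported to modify GSDMD, was higher by 0.35 (SE 0.07, adjusted p = 0.0338 from limma), which is within the fold limit. Of 20 genes for other death pores and death-receptor adaptors, 0 passed the cutoff in limma, and 4 had an unadjusted p under 0.05, beside the same 15.2% of all clusters. SARM1, an NAD-consuming enzyme known from axon death, was lower by a small amount (log2 fold change -0.38, SE 0.07, adjusted p = 0.0253 from limma). The adjusted p of ZDHHC7 was 0.0589 to 0.127 without any 1 array, and that of SARM1 was 0.0519 to 0.115 without any 1 array except TβRIII-KD 1.

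Of the transcription factors tied to gasdermin genes and CD274, 17 were measured, of which 1 was higher at the cutoff and 0 were lower, where 0.777% of all clusters were higher. GATA3, a luminal mammary transcription factor, had log2 signals of 8.27, 8.39 and 8.58 in TβRIII-KD and of 7.61, 7.75 and 7.82 in controls. It rose by 0.68 (SE 0.10, adjusted p = 0.00858 from limma). STAT3 and CD274, the gene of PD-L1, have been reported to act together on GSDMC transcription in breast cancer cells under low oxygen. STAT3 had log2 signals of 11.21, 11.20 and 11.24 in TβRIII-KD and of 11.52, 11.70 and 11.54 in controls. The arrays did not overlap, and STAT3 was lower by 0.37 (fold change -0.37, SE 0.08, adjusted p = 0.0396 from limma), within the fold limit and with an adjusted p of 0.0591 to 0.134 without any 1 array. CD274 averaged 6.90 in TβRIII-KD and 6.72 in controls (log2 fold change 0.18, SE 0.15, adjusted p = 0.637 from limma). Whether any of these factors has a part in the level of GSDMC was not tested.

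**Figure D5:**
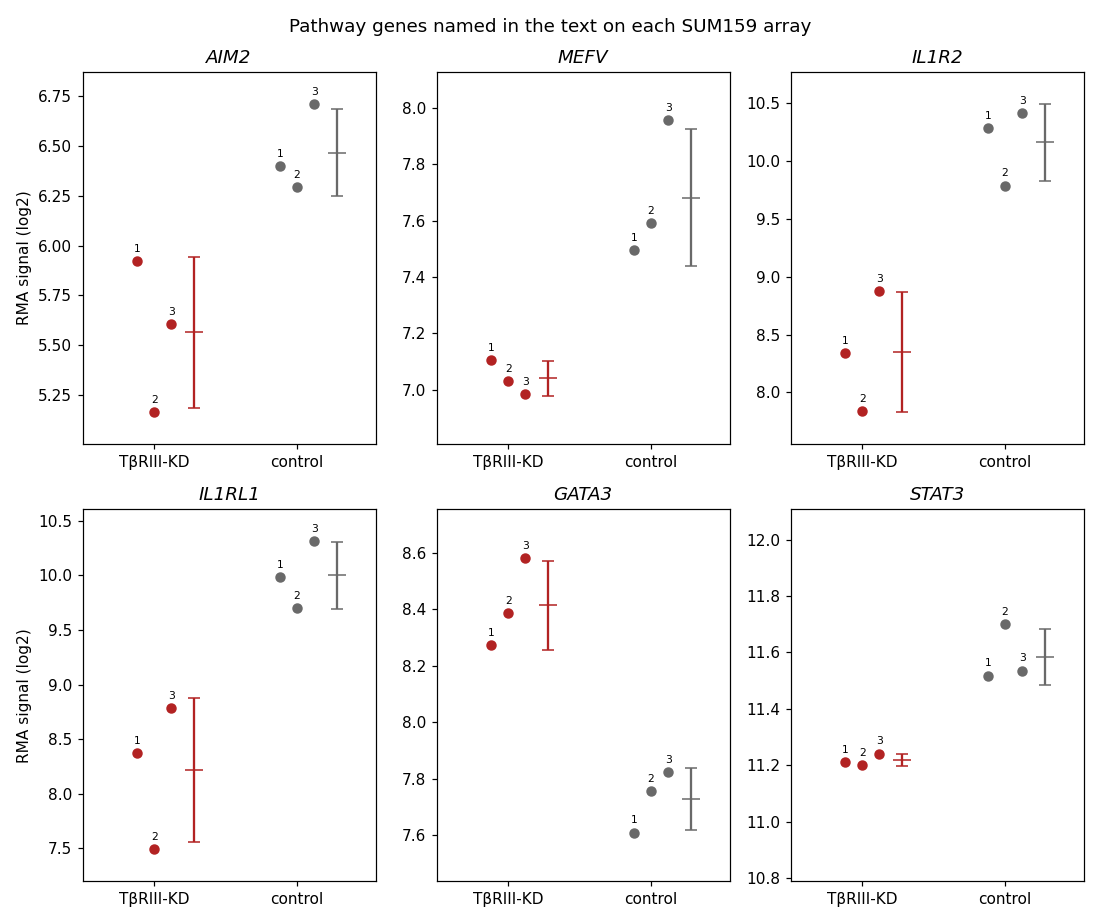
RMA signal (log2) of AIM2, MEFV, IL1R2, IL1RL1, GATA3 and STAT3 on each SUM159 array, with red dots for TβRIII-KD and grey dots for control, numbered by replicate, and bars for the mean ± SD (n = 3 arrays; each panel has its own axis, which does not start at 0). The groups do not overlap in any panel, and IL1R2 spans 7.84 to 8.88 in TβRIII-KD and 9.79 to 10.42 in controls.

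Over all 6 lists together, 106 of 120 genes were measured, and 1 was higher at the cutoff and 4 were lower. That is 3.77% lower, beside 1.49% of all clusters, and 0.943% higher, beside 0.777%. The lists are small and were written with earlier results of these arrays known, so no more is read from these shares. Without control 1, control 2, control 3 or TβRIII-KD 2, the number lower was 2.

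Gasdermins and their partners are best known from leukocytes and keratinocytes, and markers of both cell types were looked at in the same cultures. Of 10 leukocyte markers, 0 passed the cutoff in limma and 0 had an unadjusted p under 0.05, beside 2.26% and 15.2% of all clusters. With 10 genes, a count of 0 at the cutoff lies near that share, and nothing is read from it. Their mean log2 signal per array was 6.39 to 6.43 in TβRIII-KD and 6.33 to 6.45 in controls, and PTPRC, the general leukocyte marker CD45, averaged 4.40 in TβRIII-KD and 4.25 in controls. All but CD68 and NKG7 lay below the median signal of all clusters. Of 10 markers of suprabasal keratinocytes, 0 passed the cutoff in limma and 1 had an unadjusted p under 0.05, beside the same shares. Their log2 fold changes were all above 0, from 0.01 to 0.27. The arrays of the groups did not overlap for 2 of these markers, against 20.7% of all clusters. All 10 lay below the median signal, with a mean per array of 6.08 to 6.23 in TβRIII-KD and 6.01 to 6.11 in controls.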

How the data were processed

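Expression was measured in 6 SUM159 arrays, 3 TβRIII-KD and 3 control. The deposited values are log2 signals, which the authors computed by RMA with oligo in R 3.0.1. RMA subtracts background, makes the arrays' distributions equal by quantiles and summarizes the probes of a transcript cluster by median polish. For oligo's version and any filter on clusters, the sources used here give nothing. No detection call could be made from these values.

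Of 22148 clusters, 19129 carry 1 gene symbol, 1735 several and 1284 none. Where several single-symbol clusters named a gene, the cluster with the largest mean over all arrays was used. GSDMA and PJVK were not analysed here. Groups were compared with limma 3.58.1 under R 4.3.3, in a two-sided moderated test without trend (n = 3 per group), and p-values were adjusted over all clusters by the Benjamini-Hochberg method. The fit was tested on simulated data. Gene order is that of RefSeq on GRCh38.p14. The members and lists were chosen with earlier results of these data known. The genes named are the members, TGFBR3, GAPDH, the 3 nearest genes on each side of a member, the 8 genes most like GSDMC, the genes past the cutoff in each list or, with none, the one with the smallest p, and 15 fixed genes such as CASP8. Others were named after their values were seen. Alternatives covered moderation, array weights, normalization, filters, fold limits, a replicate block, the methods' t-test and each array left out.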

Additional observations from a re-analysis of the deposited data

How the results depend on the processing

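The log2 fold change of GSDMC was -2.78 to -2.43 over the fits with 1 array left out and moved by less than the spread between replicates under every other alternative tried. The number of members past the cutoff was 1 except with the Student's t-test after adjustment, which gave 0, and with clusters under the median mean signal filtered out, where it was 0 because the filter removes GSDMC. The Student's t-test, which was not the study's method for the arrays, gave 25 clusters after adjustment over all 22148. Before adjustment it gave 1370 higher and 1586 lower. Of the 106 pathway genes, it gave 8 higher and 14 lower before adjustment. After adjustment the number at the cutoff was 0 higher and 0 lower. The number higher was 2 with no fold limit and 0 with a log2 fold limit of 1. The number lower was 6 with no fold limit, 5 with array weights, 2 with that filter, 2 with a log2 fold limit of 1 and 2 to 4 with 1 array left out. The fold change of GZMA was -0.014 with quantile normalization repeated and -0.045 to 0.14 with 1 array left out, and that of NINJ1 was -0.064 to 0.043 with 1 array left out.

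Replicate numbers were not taken to pair arrays. Deviations from the group means correlated at -0.05, 0.34 and 0.50 for the arrays numbered 1, 2 and 3, and not every array correlated best with its own number. With a replicate block, 1 member passed the cutoff, and 1 pathway gene was higher and 5 were lower. IL18, at a fold change of 0.48, had an adjusted p of 0.0423 with the block in limma and of 0.117 to 0.438 in the other fits on all arrays and those with 1 array left out.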
